A study of Drosophila melanogaster with 2 samples.

Results

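A divergent promoter is a stretch of DNA between 2 genes that are transcribed away from each other, one on the minus strand and one on the plus strand. The members described here are the binding peaks of the tagged org-1 protein whose summit, the position of highest enrichment, lay within 500 bp of an annotated protein-coding transcript start on each strand. Of the 4434 summits of the authors' optimal peak list, 453 met that rule, which is 10.2% (exact binomial 95% interval 9.34 to 11.2). They lay in 451 distinct regions and at 414 gene pairs with 828 genes, 251 of which carry only a CG number as a symbol. Single-direction promoters, whose summit lay within 500 bp of starts on 1 strand only, held 1215 summits, and the other 2766 summits lay farther from any start.

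Chromatin immunoprecipitation with sequencing was carried out on whole Drosophila melanogaster embryos of mixed sex, 2 to 24 hours old, from a stable transgenic line that expresses org-1 with green fluorescent protein at its C-terminus. The precipitation used an antibody against the fluorescent protein, per the description, while the antibody field of the labels reads org-1. The series has 2 biological replicates of 1 group and no second condition, so all comparisons are between sets of peaks. All cell types of the embryo were pooled, and the labels do not say which cells carried the tagged protein. The read depth of the libraries is unknown, because the files give regions and not counts.

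Org-1 belongs to the T-box family of transcription factors, is the fly counterpart of Tbx1, and is known for its part in specifying particular embryonic muscles. In the compact fly genome many neighbouring genes are arranged head to head, so that both promoters share a short nucleosome-depleted stretch. Genes arranged in this way are often housekeeping genes, and their promoters are known for the sites of DREF, BEAF-32 and the motif 1 binding protein M1BP, while TATA boxes, initiators and GAGA factor sites are known mainly from developmentally regulated promoters.

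The stretch between the starts is printed first for 6 of the 20 strongest members, to show what DNA lay under the highest peaks. Each was read from release 6 of the genome (dm6), plus strand, 5′ to 3′, from the base after the start of the minus-strand gene to the base before the start of the plus-strand gene. The gene on the plus strand is named first, and the capitals mark the 11 bases centred on the summit. No exon of a protein-coding transcript lay in these stretches.
mRpS10/Art3, chr3R:15229409-15229664: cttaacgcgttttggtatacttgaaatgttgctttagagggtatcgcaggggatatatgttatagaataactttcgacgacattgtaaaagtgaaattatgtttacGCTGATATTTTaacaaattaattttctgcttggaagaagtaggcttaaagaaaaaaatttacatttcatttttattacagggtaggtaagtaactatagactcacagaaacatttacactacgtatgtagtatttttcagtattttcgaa
CHMP2B/Tcs5, chr3L:5139396-5139618: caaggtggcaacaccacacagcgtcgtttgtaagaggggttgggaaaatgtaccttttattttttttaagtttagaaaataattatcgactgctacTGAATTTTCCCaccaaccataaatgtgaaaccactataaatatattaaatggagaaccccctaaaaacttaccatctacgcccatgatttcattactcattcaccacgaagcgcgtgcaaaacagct
CG17294/CG13390, chr2L:8376798-8377034: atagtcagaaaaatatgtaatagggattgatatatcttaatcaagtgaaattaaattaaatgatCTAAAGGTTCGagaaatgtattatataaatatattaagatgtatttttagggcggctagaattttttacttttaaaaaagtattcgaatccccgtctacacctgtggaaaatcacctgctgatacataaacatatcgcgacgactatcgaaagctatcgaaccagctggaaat
CIA30/CG7601, chr3R:29736746-29736964: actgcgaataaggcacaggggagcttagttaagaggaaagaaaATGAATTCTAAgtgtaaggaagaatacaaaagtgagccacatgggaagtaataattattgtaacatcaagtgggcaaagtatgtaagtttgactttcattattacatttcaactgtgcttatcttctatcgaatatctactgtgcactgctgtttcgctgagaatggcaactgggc
CG3552/CG3437, chr3L:9457670-9457911: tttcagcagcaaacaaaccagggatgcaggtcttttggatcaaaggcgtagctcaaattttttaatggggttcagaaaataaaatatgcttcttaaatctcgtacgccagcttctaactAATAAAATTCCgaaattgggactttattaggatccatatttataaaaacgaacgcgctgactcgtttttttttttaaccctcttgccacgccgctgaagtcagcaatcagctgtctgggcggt
PIG-F/Lon, chr3L:19612200-19612454: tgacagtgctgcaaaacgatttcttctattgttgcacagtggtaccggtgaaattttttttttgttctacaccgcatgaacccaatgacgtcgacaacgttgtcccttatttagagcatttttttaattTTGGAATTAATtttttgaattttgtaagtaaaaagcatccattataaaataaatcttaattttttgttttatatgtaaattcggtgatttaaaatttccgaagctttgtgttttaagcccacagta

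These 6 stretches were 219 to 256 bases long and their GC content was between 30.1% and 40.1%. mRpS10, a protein of the small mitochondrial ribosomal subunit, and Art3, an arginine methyltransferase, shared a peak with a signal of 1288, which was 761.0 in replicate 1 and 529.1 in replicate 2. CHMP2B, an ESCRT-III subunit, and Tcs5, the kinase of the KEOPS complex, shared one of 1008, with 662.1 and 338.4 in replicates 1 and 2. The peak between PIG-F, a protein of GPI anchor synthesis, and Lon, a mitochondrial protease, had a signal of 789.9, with 642.5 in replicate 1 and 159.5 in replicate 2. The remaining 3 pairs had signals of 883.9 for CG17294/CG13390, 809.4 for CIA30/CG7601 and 799.8 for CG3552/CG3437. In all 6 the summit stood between 49 and 171 bp from each of the 2 starts.

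The strongest member lay beside Chro, which encodes the chromodomain protein Chromator, and Ssl1, which encodes a subunit of the general factor TFIIH. Its signal was 1806, rank 9 of the 4434 summits, with 937.9 in replicate 1 and 871.2 in replicate 2. It was not between the starts, but 84 bp downstream of the Chro start, in an untranslated exon. The next were the peaks at mRpS10/Art3 (1288), at CenG1A/mRpS23 (1282), where replicate 1 had 583.0 and replicate 2 had 703.1, and at CG9147/Fbw5 (1249). Those 4 peaks were among the 60 strongest candidate regions of each replicate, and at the CenG1A/mRpS23 peak replicate 2 was the higher one.

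The other members among the 20 strongest covered varied cell biology. They included Pal1/Pdrg1 (1219), where Pal1 encodes an enzyme of peptide amidation, and CG8320/Pex11ab (1143), where Pex11ab acts in peroxisome division. CG7632 and CG11309 shared a peak of 1024. The peak at bves/Stt3A reached 1019, and Stt3A encodes a catalytic subunit of the oligosaccharyltransferase. CG12194/tank followed at 996.5, CG8360/CG8372 at 877.2 and CG5098/CG5757 at 861.5. Fer1HCH and Fer2LCH, which encode the heavy and light chains of the iron store ferritin, shared a peak of 854.7. PTPMT1, a mitochondrial phosphatase, and Hrd3, a component of the ER degradation ubiquitin ligase, shared one of 811.1. The last was Cyt-c-d/CG31808 at 785.5, where Cyt-c-d encodes a cytochrome c. All 20 overlapped a strong region of both replicates, where strong means among the 4434 regions of a replicate with the highest signal. Choosing members by pooled signal favours such overlaps, which 97.6% of members among the 1000 strongest peaks and 61.5% of all summits had. Of the 20, 18 were higher in replicate 1. The summit lay between the starts in 12 of these 20.

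The signals of members and of single-direction promoters spread over much the same values, which was not tested. The members' median signal was 187.2 (quartiles 129.6 and 286.8, range 100.7 to 1806), against 178.3 (129.6 and 300.9) at single-direction promoters and 156.3 (120.7 and 233.4) at the other summits. A signal of 500 or more was reached by 47 members (10.4%), by 145 single-direction summits (11.9%) and by 128 other summits (4.63%). Of the 100 strongest summits, 15 were members, 44 lay at single-direction promoters and 41 elsewhere. The −log10 q value added little to this ranking, since 72.0% of members and 72.9% of single-direction summits shared its highest value.

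The share of divergent promoters was higher among strong regions than among weak ones, in the pooled list and in each replicate. In the pooled candidate list, 10.2% of the 4434 highest-ranked summits and 2.89% of the 25566 below them met the rule. In replicate 1 the shares were 10.9% of the strong regions (483) and 2.28% of the rest. In replicate 2 they were 8.64% (383) and 3.04%. For single-direction promoters the pooled shares were 27.4% within the optimal length and 17.3% below it.

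The 2 starts of a pair were close together. In 443 members the pair was head to head with a gap, whose length had a median of 288 bp (quartiles 221.5 and 389.5, range 8 to 880). The shortest gaps were those of SerRS/CG17260 (8 bp), where SerRS is the seryl-tRNA synthetase, CG1785/CG2004 (12 bp) and Cnep1r2/E(z) (16 bp), where E(z) is the histone methyltransferase of Polycomb repressive complex 2. The longest were those of Nepl12/Dhc1 (880 bp), CG42784/CG16956 (856 bp) and the tetraspanin genes Tsp42Er/Tsp42Eq (830 bp). In the remaining 10 members the annotated 5′ ends overlapped, by 11 bp at mAcon1/CG43345 to 441 bp at ras/stx, and their signals ran from 103.8 at Dcp-1/pita to 785.5 at Cyt-c-d/CG31808.

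Most summits stood between the starts. Of the 443 members with a gap, 350 (79.0%, interval 74.9 to 82.7) had the summit inside it, while the gap made up on average 47.0% of the window in which the rule allowed a summit. Of those 350 summits, 241 (68.9%) lay in the central 50% of the gap. The nearer start was a median of 94 bp away (quartiles 49 and 133) and the farther one a median of 210 bp (152 and 311). The plus-strand start was the nearer one in 264 members and the minus-strand start in 188. Between genes lay 273 summits (60.3%), in an untranslated exon 110 (24.3%), in an intron 65 and in a coding exon 5.

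**Figure D1:**
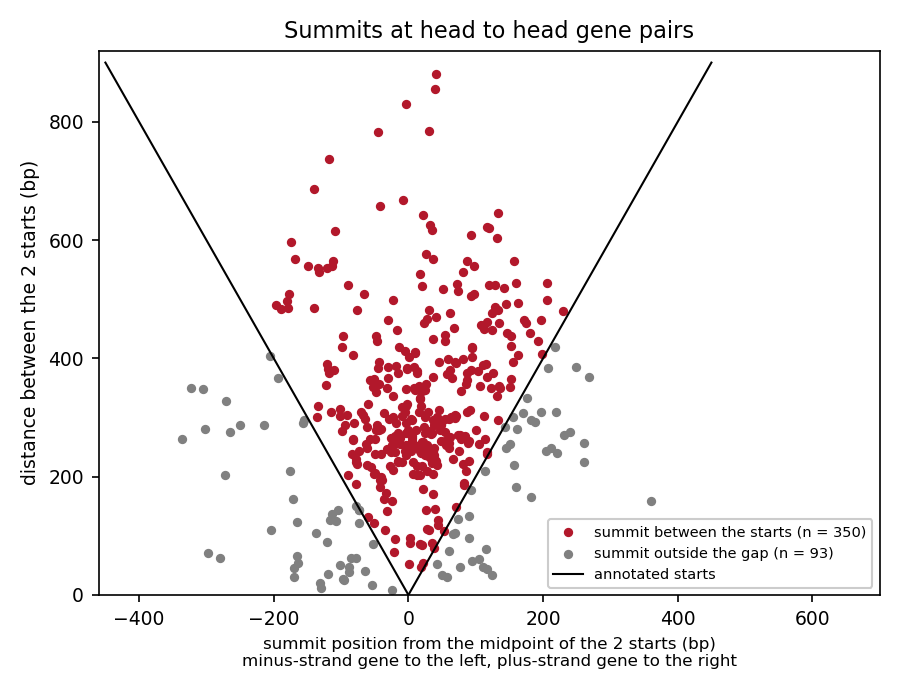
Each point is 1 of the 443 summits at head to head pairs, by its distance from the midpoint of the 2 starts (horizontal axis, bp) and the distance between the starts (vertical axis, bp), and the lines mark the starts. Of these, 350 summits fall between the lines, and the rule allows none outside them where the starts are over 500 bp apart.

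The wider the gap, the more of the window allowed by the rule lies between the starts, so each share is given with that part of the window. With gaps of up to 100 bp, 11 of 46 summits (23.9%) lay between the starts, where 6.17% of the window did, and with gaps over 100 and up to 200 bp 24 of 44 (54.5%), where 17.4% did. The share was 83.7% of 153 for gaps over 200 and up to 300 bp, against 34.5% of the window, and 88.8% of 98 up to 400 bp, against 53.9%. It was 97.6% of 84 up to 600 bp, against 88.4%. Above 500 bp the rule allows no summit outside the gap, so the 100% of the 18 summits with gaps over 600 bp was fixed by it. The median distance of the summit from the midpoint was smallest, at 43.5 and 48 bp, in the bins over 600 bp and over 200 to 300 bp, and the rule confined the summits of the wider bin. Median signals across these bins ran from 156.1 (over 100 to 200 bp) to 224.8 (up to 100 bp). Summits outside the gap had a median signal of 175.6 and a median GC content of 38.6% within 50 bp, against 188.0 and 30.7% for those between the starts.

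The position of the summit varied between the replicates. The strongest overlapping region of replicate 1 had its summit a median of 13.5 bp from the pooled one (422 members), and 74.9% were within 50 bp. In replicate 2 the median was 30 bp (435 members) and 61.4% were within 50 bp. The replicate 1 summit lay between the starts in 343 of 413 head to head members (83.1%) and the replicate 2 summit in 307 of 425 (72.2%). Of the 397 with both, the summits were both between the starts in 278, neither in 58, and on the same side of the midpoint in 296 (74.6%). The median distance between the 2 replicate summits was 50 bp, so positions within a gap of typical width were known only to that precision.

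Pairs of the annotation were then counted from the other side. Of 2667 head to head pairs of protein-coding genes with starts at most 1000 bp apart, 458 (17.2%, interval 15.8 to 18.7) had a summit within 500 bp of both starts. This counts every pair a summit could serve, so it is larger than the 414 pairs of nearest starts. The share was 17.7% for gaps up to 100 bp, 14.9% over 100 to 200 bp, 27.3% over 200 to 300 bp, 24.0% over 300 to 400 bp, 14.5% over 400 to 600 bp and 3.45% over 600 to 1000 bp. The intervals of the bins over 200 to 300 bp and over 100 to 200 bp did not overlap. Above 500 bp the allowed window shrinks with the gap, which lowers the share by construction. Of the 5052 genes in such a pair, 1082 (21.4%) had a summit within 500 bp of a start of their own, against 809 of the 8893 other genes (9.10%). A summit near both starts of a pair counts for both genes, which raises the first share by construction. Of the 5052 genes, 823 were in a member pair.

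**Figure D2:**
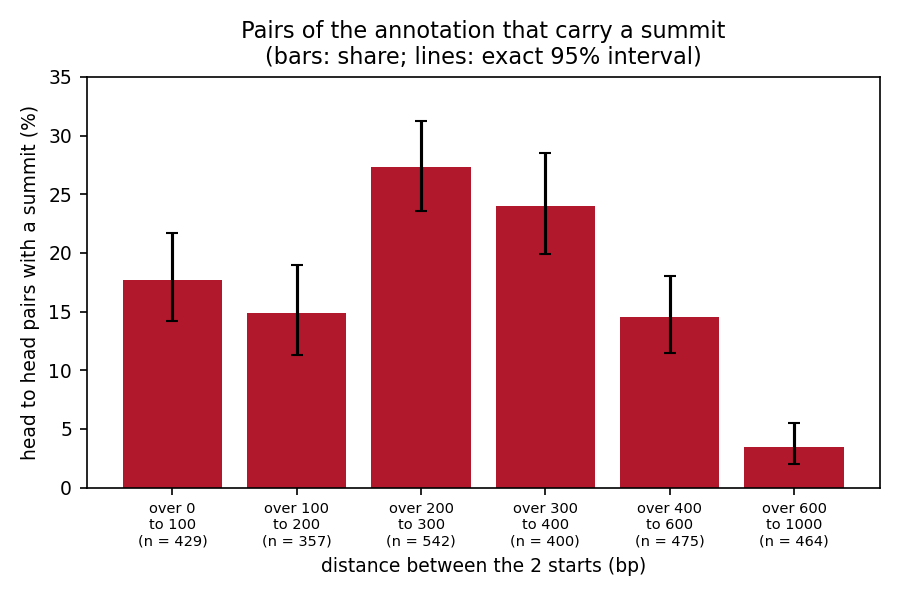
Bars give the share (%) of the annotation's head to head pairs that carried a summit within 500 bp of both starts, by the distance between the starts (bp), and lines give the exact 95% interval over pairs. The bins over 200 to 300 bp and over 300 to 400 bp stand highest, at 27.3% and 24.0%.

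The members were spread over the large autosomal arms and were sparser on the X. They made up 11.3% of the summits of 2L, 10.8% of 2R, 10.9% of 3L and 11.9% of 3R, against 5.93% of the 843 summits of the X and none of the 7 of chromosome 4. Of the head to head pairs of the X, 52 of 403 (12.9%, interval 9.79 to 16.6) had a summit, against 15.5% to 19.6% on the 4 large autosomal arms, where the intervals overlapped that of the X except on 3R (16.7 to 22.8).

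A second summit was present at 39 of the 414 pairs. The stronger one had a median of 2.23 times the signal of the weaker, and their median distance was 202 bp. In 24 of these pairs both summits lay between the starts, and in 11 only the stronger one did. Since a replicate region can overlap both, the replicate values of such a pair are not independent.

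Gene lists were compared with all 13945 protein-coding genes, of which 828 (5.94%) belonged to a member pair. Head to head genes in general were 36.2% of all genes, and the number of head to head genes of a list is given beside each member-pair count of this paragraph. Cytoplasmic ribosomal protein genes stood highest, with 29 of 85 (34.1%, interval 24.2 to 45.2), and 52 of the 85 had a head to head neighbour. Mitochondrial ribosomal protein genes had 12 of 73 (16.4%, 8.79 to 27.0; 58 with such a neighbour), aminoacyl tRNA synthetases 6 of 33 (18.2%; 23) and chromatin architecture and insulator proteins 7 of 33 (21.2%, 8.98 to 38.9; 18). Vesicle traffic and autophagy genes had 15 of 103 (14.6%, 8.39 to 22.9; 68). These 5 lists have intervals above 5.94%, but of the 5052 genes with a head to head neighbour 823 (16.3%) were in a member pair. Counted over such genes alone, the cytoplasmic ribosomal proteins had 55.8% (interval 41.3 to 69.5), which lies above that value. The chromatin list then had 33.3% (13.3 to 59.0), the tRNA synthetases 26.1% (10.2 to 48.4), vesicle traffic 22.1% (12.9 to 33.8) and mitochondrial ribosomal proteins 20.7% (11.2 to 33.3), and these 4 intervals contain 16.3%. Peaks at cytoplasmic ribosomal protein genes were not confined to member pairs. A summit within 500 bp of a start of their own was present at 59 of the 85, against 13.6% of all protein-coding genes.

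**Figure D3:**
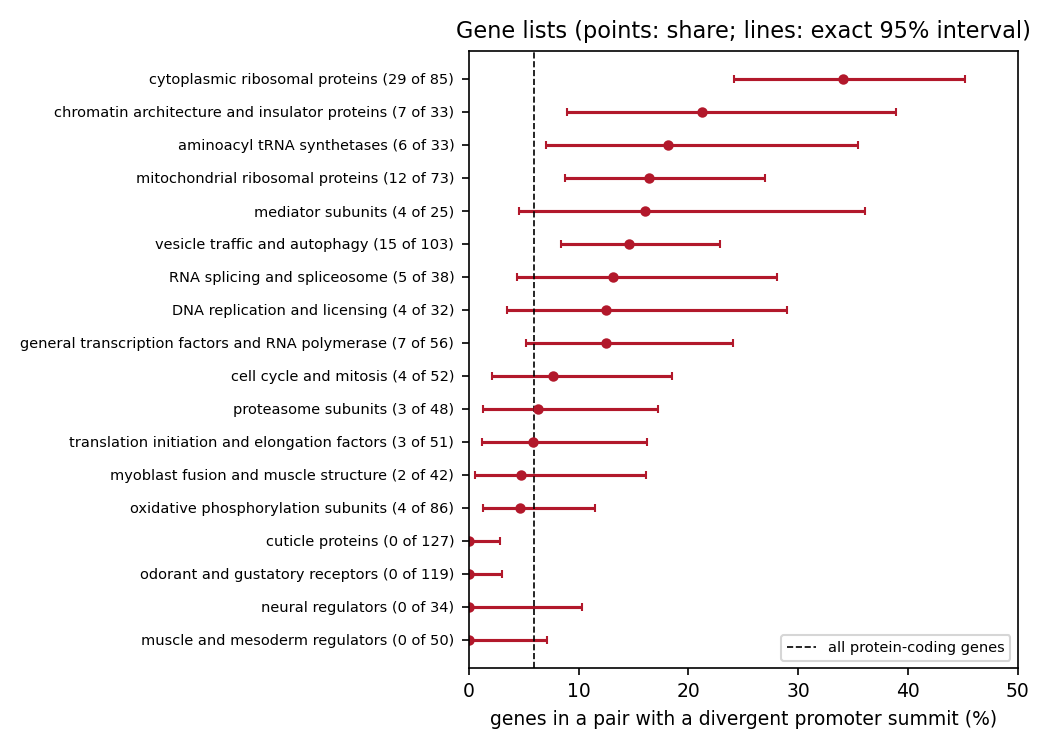
Points give the share (%) of each gene list that belonged to a pair with a divergent promoter summit, lines the exact 95% interval over genes, and the dashed line the 5.94% of all protein-coding genes. Cytoplasmic ribosomal proteins stand at 34.1%, and the muscle regulator, neural, receptor and cuticle lists at 0.

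At the cytoplasmic ribosomal protein genes the peak stood beside the ribosomal protein start. In all 29 pairs the strongest summit was nearer to the start of the ribosomal protein gene than to that of its partner, at a median of 40 bp from the one and 279 bp from the other. In the 12 mitochondrial ribosomal protein pairs the summit was nearer to the listed gene's start in 3, and the medians were 168.5 and 120 bp. The median GC content within 50 bp of the summit was 46.5% at the 29 cytoplasmic ribosomal protein peaks and 31.7% at the other 424 members, and the median signal was 317.1 against 182.2. The difference was not tested, because the list was chosen with results of these data known.

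The RpL7 peak, shared with Ripalpha, had the highest signal of that list (771.1, with 355.2 in replicate 1 and 418.6 in replicate 2) and its summit stood 43 bp from the RpL7 start. RpS27, with Nup37 of the nuclear pore as its partner, had 767.9 (424.9 and 344.6 in replicates 1 and 2), 2 bp from its start. RpL14, opposite the NELF complex subunit gene Nelf-E, had 637.6 (290.3 and 347.8), 19 bp from its start. RpL13 shared a peak of 462.1 with Dref, which encodes the factor DREF itself, and the replicates gave 218.1 and 240.5. Replicate 2 was the higher one in 3 of these 4 pairs, but in only 8 of the 28 pairs of the list with both values, whose median log2 ratio of replicate 1 over replicate 2 was 0.37. Neither replicate was more than 1.5 times the other in 17 of the 28, and RpL28 (261.4 in replicate 1 and 97.4 in replicate 2) was among the rest. At 7 of the 29 pairs there was a second summit.

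Among mitochondrial ribosomal protein genes, mRpL23 followed mRpS10 and mRpS23 with 703.4, of which replicate 1 had 486.7 and replicate 2 had 215.0. Among the chromatin proteins Cp190, an insulator cofactor, shared a peak of 680.6 with CG4338, with 485.1 and 194.2 in replicates 1 and 2. E(z) had 280.2, M1BP, the protein that binds motif 1, had 231.6 beside CG8202, pzg had 119.4 and the zinc finger insulator protein gene pita 103.8. Both Dref and M1BP, whose products bind words searched below, were at divergent promoters with a peak.

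Translation and RNA genes with a member peak included eIF4EHP (679.0; 514.1 and 160.5 in replicates 1 and 2), a cap-binding repressor of translation, eIF1 (357.9), which shared its peak with RpL28, and eIF3h (341.3). SerRS had 324.9, GluProRS 267.9 and IleRS, the isoleucyl-tRNA synthetase, 248.8. The splicing factor gene U2af50 shared a peak of 330.5 with PIG-Q, with 240.7 in replicate 1 and no candidate region in replicate 2. Phf5a had 200.7 and Sf3b6 179.7. Translation factors as a list were at 3 of 51 and splicing genes at 5 of 38 (13.2%, 4.41 to 28.1), and both intervals contained the 5.94% of all genes.

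RNA polymerase genes Polr3E and Polr2B had 376.0 and 297.4, and Taf2, a TFIID subunit, 224.7, in a list with 7 of 56 genes (12.5%, interval 5.18 to 24.1). Mediator subunits MED30, MED17 and MED27 had 258.1, 197.1 and 195.1, in a list with 4 of 25 (16%, 4.54 to 36.1). The replication gene PolD2 had 388.5, dup, the fly Cdt1, 317.4 beside the kinase gene SRPK, and the licensing gene Mcm2 shared a peak of 114.0 with RPA1, in a list with 4 of 32 (12.5%, 3.51 to 29.0). The Mcm2/RPA1 pair and Sec6/Atg7 were the only ones with both genes in 1 list. SMC6 had 384.6, SMC2 228.1 and Cdk12 204.8, in a cell cycle list with 4 of 52 (7.69%, 2.14 to 18.5). The shares of these 4 lists were above the 5.94% of all genes, and their intervals contain it. Over genes with a head to head neighbour alone they were 19.4%, 21.05%, 18.2% and 14.8%, in the same order, against 16.3% of all such genes.

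In vesicle traffic and autophagy, Vps33B shared a peak of 588.7 with the furin gene Fur1 (354.8 in replicate 1 and 229.5 in replicate 2), the coatomer gene alphaCOP had 443.0 and the autophagy gene Atg2 279.0. The complex I subunit ND-ASHI shared one of 525.1 with the fumarase gene Fum1, with 263.6 and 262.6 in the replicates, followed by ND-MWFE (210.4) and ND-42 (199.7). Oxidative phosphorylation had 4 of 86 genes (4.65%) and the proteasome 3 of 48 (6.25%), Rpn5 (160.8), Rpn3 (131.8) and Rpn13 (106.8), which are shares near that of all genes. Over genes with a head to head neighbour alone the 2 lists had 9.09% and 11.5%, against 16.3% of all such genes.

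None of the 50 muscle and mesoderm regulators was in a member pair, which allows a share of up to 7.11%, and 5 of them had a head to head neighbour. The counts were also 0 for 34 neural regulators (up to 10.3%; 2 with such a neighbour), 119 odorant and gustatory receptors (3.05%; 16) and 127 cuticle proteins (2.86%; 13). A count of 0 member pairs does not mean that a list had no promoter peaks. A summit within 500 bp of a start of their own was present at 5 of the muscle regulators and 6 of the neural regulators. The receptors and cuticle proteins had 0, genes of myoblast fusion and muscle structure 10 of 42, and all protein-coding genes 13.6%. Of those 42 genes of myoblast fusion and muscle structure 2 were in a member pair. These were mbc, the DOCK-family protein needed for myoblast fusion, opposite the nuclear pore gene Nup98-96 with 129.6 (53.8 and 84.8 in replicates 1 and 2), and mys, a beta integrin gene, opposite fs(1)h with 107.3 (16.9 and 88.9). Both were weaker than the median member and higher in replicate 2. The summit at org-1 itself was a single-direction one, 336 bp from the nearest start.

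Members overlapped strong regions of replicate 1 more often than of replicate 2. Of 453, 391 (86.3%, interval 82.8 to 89.3) overlapped a strong region of replicate 1 and 320 (70.6%, 66.2 to 74.8) one of replicate 2. The shares were 82.9% and 80.7% of single-direction summits, and 82.9% and 76.9% of all 4434 summits. Both replicates had one at 270 members (59.6%, 54.9 to 64.2), beside 61.5% of all 4434 summits and 65.0% of single-direction ones. Only replicate 1 had one at 121 members (26.7%) and only replicate 2 at 50 (11.0%), against 17.9% and 15.7% at single-direction promoters. Among all 4434 summits these shares were 21.3% and 15.3%.

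The signal itself differed in the same direction. In the 406 members with a candidate region in both replicates, the median log2 ratio of replicate 1 over replicate 2 was 0.95. Its quartiles were 0.26 and 1.57, and 341 members (84.0%) were higher in replicate 1. Of all 4264 summits with a region in both, 2937 (68.9%) were higher in replicate 1, and their median was 0.45. At single-direction promoters the median was 0.54 (n = 1159) and at the other summits 0.36 (n = 2699). The ratio moved with base composition. For GC contents within 50 bp of the summit of up to 30%, over 30% to 36% and over 36%, its medians were 1.36, 0.93 and 0.29 in members, 1.00, 0.59 and 0.01 at single-direction promoters and 0.80, 0.31 and −0.16 at the other summits. In each bin the members had the highest median of the 3 sets. With 1 library per replicate, a difference between libraries cannot be told apart from one between embryos. Across the 406 members, Spearman's rho of the replicate signals was 0.54, and across the 1159 single-direction summits 0.52; the points share the same 2 libraries, and weak regions are cut off by the pooled threshold.

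**Figure D4:**
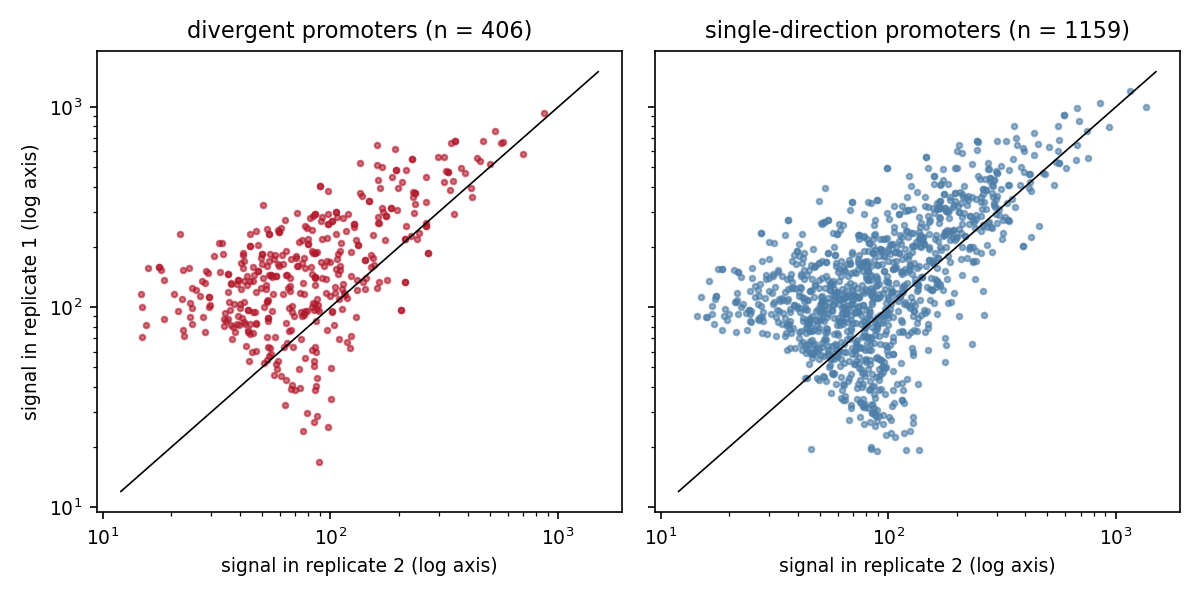
Each point is a summit with a candidate region in both replicates, by the signal in replicate 2 (horizontal log axis) and replicate 1 (vertical log axis), for divergent promoters on the left and single-direction promoters on the right, and the line marks equality. Of the 406 divergent ones 341 lie above the line, and of the 1159 single-direction ones 826.

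Some members had no candidate region in a replicate, although each replicate list holds 30000 regions. Replicate 1 had none at 31 members (6.84%), against 3.54% of single-direction summits and 2.44% of all summits. Replicate 2 had none at 18 (3.97%), against 1.07% and 1.44%. The 2 members with none in either were Rbf2/CG32856 (183.9), where Rbf2 is a retinoblastoma-family protein, and Clp/PGAP2 (113.8). Where replicate 1 had no region, the pooled signal exceeded that of replicate 2 by a median of 80.0 (range 16.2 to 314.6, n = 29), and the next summit of replicate 1 was at least 696 bp away. At CG3792/Gmd the pooled signal was 471.1 and replicate 2 had 156.5, a pair chosen after its values were seen. The median pooled signal over the sum of both replicates was 0.998 where both had a region (5th percentile 0.454, 95th percentile 1.07). Whether replicate 1 lacked signal where its list has no region was not tested.

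In all, 12 members (2.65%, interval 1.38 to 4.58) overlapped a strong region of neither replicate, against 1.78% of all summits and 1.40% of single-direction ones. The 12 had signals of 101.4 to 183.9. Beside Rbf2/CG32856 they included Rpn3/l(2)37Bb (131.8, with 37.2 in replicate 2), CG5554/Snap29 (131.5, 19.7) and CG30349/CCT8 (121.6, 40.03), and these 3 had no region in replicate 1.

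Members whose farther start lay just inside the 500 bp limit included Chchd2/RpS5a (486 bp, signal 138.0) and CG32100/app (484 bp, signal 306.4). Just outside the limit were CG15771/lin-52 (503 bp, 559.0), CG42613/Mpc1 (504 bp, 165.7) and CG43447/CG44290 (507 bp, 132.1).

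The DNA at the summits was AT-rich. The mean GC content of the 101 bp around a member's summit was 33.7% (SD 9.69, n = 453), against 36.3% (SD 10.2) at single-direction summits and 34.1% (SD 8.41) at the others. The windows 400 bp to either side of the members had 48.1%, and windows at the midpoints of head to head pairs without a summit had 33.8%, which is close to the members' own value. All annotated starts had 43.7%.

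Known words were searched on both strands in those 101 bp. The DREF site TATCGATA was in 18 members (3.97%, interval 2.37 to 6.21), against 1.40% (0.817 to 2.23) of single-direction summits, 0.993% of the members' flanks, 4.47% of all starts and 5.34% of midpoints of pairs without a summit. The core of motif 1, GGTCACAC, was in 12 (2.65%, 1.38 to 4.58), against 0.741% (0.339 to 1.40) of single-direction summits, 4.67% of all starts and 2.99% of those midpoints. Without replicate 2 GGTCACAC was in 1.03% of members, which lies inside the single-direction interval of the optimal list. Single-direction shares with a replicate left out are not given, for this word or those below. The BEAF-32 word CGATA, which is part of TATCGATA, was in 86 (19.0%), against 16.2%, 23.7% and 24.9%. The DREF intervals of members and single-direction summits did not overlap, those of motif 1 just did, and for both words the shares of all starts and of the midpoints lay above the members' share. A cytoplasmic ribosomal protein gene was in the pair in 9 of the 18 DREF members and in 5 of the 12 motif 1 members. Both summits of Trmt61/RpL34a are among those 9. Counted by pair, such a gene was in 29 of all 414 member pairs.

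Stretches with these words are shown next, with every occurrence of the word in capitals, for members whose gap is free of exons. They are not in each case the strongest members with the word. For TATAAA, stronger ones such as CHMP2B/Tcs5 (1008) are among the stretches printed above. The first 2 hold TATCGATA beside a cytoplasmic ribosomal protein gene, where the summit lay 63 bp from the RpS25 start and 36 bp from the RpL34a start.
CG4820/RpS25, chr3R:11216288-11216534: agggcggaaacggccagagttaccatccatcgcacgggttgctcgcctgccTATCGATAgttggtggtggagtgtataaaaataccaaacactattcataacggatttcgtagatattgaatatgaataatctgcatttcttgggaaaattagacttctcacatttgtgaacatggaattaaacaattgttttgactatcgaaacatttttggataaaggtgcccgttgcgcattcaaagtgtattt
Trmt61/RpL34a, chr3R:26059268-26059495: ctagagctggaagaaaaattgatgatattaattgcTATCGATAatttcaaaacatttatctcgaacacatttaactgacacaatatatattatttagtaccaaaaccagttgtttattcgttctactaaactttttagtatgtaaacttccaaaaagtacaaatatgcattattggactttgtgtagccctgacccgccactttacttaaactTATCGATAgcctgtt
The next 2 hold GGTCACAC, or its reverse complement GTGTGACC, at wuho/Top3beta and at mys/fs(1)h.
wuho/Top3beta, chrX:6287991-6288099: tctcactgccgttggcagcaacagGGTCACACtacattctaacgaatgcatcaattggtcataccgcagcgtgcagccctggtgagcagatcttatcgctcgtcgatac
mys/fs(1)h, chrX:8061437-8061644: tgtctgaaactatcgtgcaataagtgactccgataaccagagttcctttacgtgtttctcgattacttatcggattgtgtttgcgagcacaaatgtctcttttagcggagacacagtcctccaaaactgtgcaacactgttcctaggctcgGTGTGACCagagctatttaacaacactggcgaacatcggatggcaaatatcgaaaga
The last 2 hold TATAAA, as its reverse complement TTTATA, at Shc/Atat, whose signal was 623.1, and GAGAG at CG6511/CG32022, whose signal was 468.3.
Shc/Atat, chr3L:9426759-9427009: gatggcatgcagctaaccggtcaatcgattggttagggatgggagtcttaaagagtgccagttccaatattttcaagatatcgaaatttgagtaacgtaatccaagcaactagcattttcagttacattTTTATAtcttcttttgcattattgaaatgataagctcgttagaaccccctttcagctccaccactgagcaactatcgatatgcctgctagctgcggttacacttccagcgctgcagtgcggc
CG6511/CG32022, chr3L:8721273-8721323: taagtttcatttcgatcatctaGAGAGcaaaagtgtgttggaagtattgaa

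The TATA word TATAAA was in 121 members (26.7%, interval 22.7 to 31.0), against 18.7% (16.5 to 21.0) of single-direction summits, 6.95% of flanks, 15.3% of all starts and 22.4% of midpoints of pairs without a summit. Without replicate 1 it was in 16.7% of members. The word holds only A and T, and the part of base composition in its share was not tested. The GAGA factor word GAGAG was in 21 (4.64%, 2.89 to 6.999), against 13.3% (11.4 to 15.3) of single-direction summits, 11.0% of flanks, 12.7% of all starts and 7.88% of midpoints. Without replicate 1 GAGAG was in 8.62% of members. Of the 13 words, these and the DREF word had intervals at members and at single-direction promoters that did not overlap. For the initiator core TCAGT the shares were 15.5% and 17.1%, against 31.7% of all starts and 15.8% of midpoints. Windows of all starts are centred on a start. The members' nearer start was a median of 94 bp from the summit, beyond the 50 bp searched. The part of this placement in the difference was not tested.

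**Figure D5:**
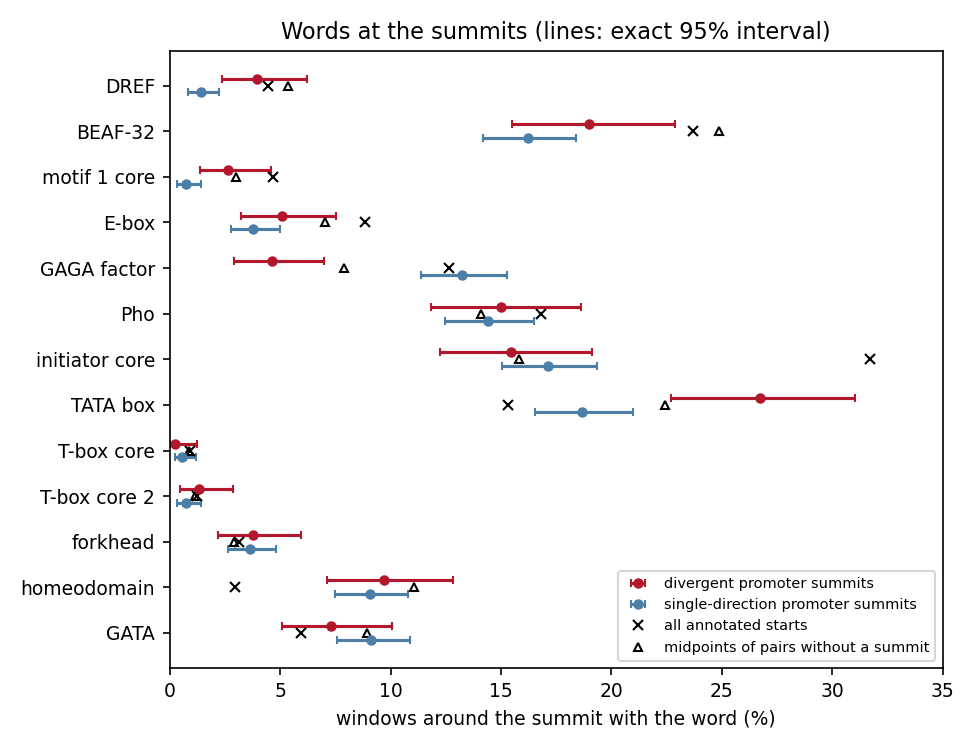
Points give the share (%) of 101 bp windows that held each word, at divergent promoter summits and below them at single-direction promoter summits, with exact 95% intervals over summits. Crosses give all annotated starts and triangles the midpoints of head to head pairs without a summit, and the GAGA factor word stands at 4.64% and 13.3% in the 2 sets of summits.

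T-box words were rare at the members. AGGTGTG was in 1 member, vsg/SH3PX1 with a signal of 143.9 (0.221%, interval 0.00559 to 1.22), against 0.576% of single-direction summits and 0.938% of all starts, and without replicate 2 in 0.414% of members. GGTGTGA, which overlaps it by GGTGTG, was in 6 (1.32%, 0.488 to 2.86), against 0.741% and 1.22%. In 4 of those 6 the motif 1 core was present too, and both words contain TCACAC on 1 strand, so the same bases can count for both. The strongest of the 6 was spidey/dpr14 at 399.9. No match says only that these letters are not within 50 bp of the summit.

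The other words had overlapping intervals in the 2 sets of promoters. The E-box CAGCTG was in 5.08% of members and 3.79% of single-direction summits, the Pho word GCCAT in 15.01% and 14.4%, and the forkhead word TGTTTAC in 3.75% and 3.62%. Without replicate 1 CAGCTG was in 9.40% of members and TGTTTAC in 2.09%. The homeodomain word TAATTA was in 9.71% and 9.05%, against 2.97% of all starts and 11.1% of midpoints of pairs without a summit. The GATA word TTATCA was in 7.28% and 9.14%.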

How the data were processed

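Chromatin immunoprecipitation with sequencing was measured in 2 biological replicates of 1 group. The authors deposited dm6 region lists (signal, −log10 q and summit offset per region) for each replicate, for the pooled replicates (30000 regions each) and, after thresholding on the irreproducible discovery rate, as the optimal list of 4434 summits. Per the file headers and labels, each was made against control reads. Neither aligner nor peak caller is named in these sources. The signal is the authors' own, and its scale is not stated. Lists in dm3 were not used.

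Starts came from Ensembl release 115 (BDGP6.54, 13945 protein-coding genes, 19607 starts) and sequence from release 6 of the genome. Each member took the nearest start on each strand. A replicate's value is that of its strongest region overlapping the peak by 1 bp or more. Intervals are exact binomial 95% intervals (scipy 1.17.1), cover the counting of peaks or genes only, and treat them as independent, which neighbouring genes and paired summits are not. Sequence windows reached 50 bp either side of the summit. The functions were tested on simulated data with known answers. No p values were computed.

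The members and the 18 gene lists were chosen with earlier results of these data known. Named were the gene pairs of the 20 strongest members, up to 3 per list, the longest and shortest gaps, the members nearest the limit, up to 5 without a strong region in either replicate, and org-1. Members named for a word, for overlapping 5′ ends or beyond 3 of a list, and the sequences chosen for a word, were picked after their values were seen. Some pairs that this rule names are not reported here. Alternatives covered the window, the starts, the peak list, the overlap, the word window and each replicate alone.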

Additional observations from a re-analysis of the deposited data

How the results depend on the processing

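With summits within 250 bp of both starts there were 275 members, a median gap of 247.5 bp, a median signal of 198.4 and 11.4% of head to head pairs with a summit. Within 1000 bp the median gap was 347 bp and the share of pairs 22.2%. With only the outermost start of each gene, 70.7% of summits lay between the starts. Among the 1000 strongest peaks 126 were members, with a median gap of 269 bp, a median signal of 424.6, 97.6% in strong regions of both replicates and 5.51% of pairs. Requiring an overlap of at least 0.5 of the peak gave 54.8% in both replicates, and the 1000 or 10000 strongest regions of each replicate gave 19.4% or 81.2%. Among pairs within 500 bp, 21.0% had a summit.

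Leaving out replicate 1 and leaving out replicate 2 gave 383 to 483 members, 65.8% to 83.3% of summits between the starts, median gaps of 260 to 301 bp, median signals of 79.1 to 120.1 (on each replicate's own scale) and 14.9% to 18.2% of pairs. The lower end came without replicate 1 in all 5. TATAAA was in 16.7% of members without replicate 1 and in 31.3% without replicate 2, GAGAG in 8.62% and CAGCTG in 9.40% without replicate 1, TGTTTAC in 2.09% without replicate 1, and GGTCACAC in 1.03% without replicate 2 and 1.09% within 250 bp of both starts. Over the words, 76 alternative shares stayed within the interval of the share reported and 28 did not. With flanks in place of single-direction promoters, 10 of the 13 word differences kept their direction, and 3 changed sign, namely CAGCTG (1.29 to −1.21 percentage points), GCCAT (0.61 to −3.31) and TTATCA (−1.85 to 1.66). The cause was not tested. No paired analysis was possible because the series has 1 group.

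The limits are the unknown read depth, the lack of a second factor or condition, and 2 libraries whose summits within a gap differed by a median of 50 bp. Annotated starts were not measured in these embryos.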
